A study of Homo sapiens with 2 samples.

Results

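Chromosomes 4, 9, 13 and 14 carried few NUSAP1 peaks in AsPC1 cells, and their 429 peak summits, of 9043 in all, are described here. The chromosomes were chosen by their measured density of summits, about 1 per Mb or fewer, so that density is a description with no test. Chromatin immunoprecipitation with sequencing (ChIP-seq), which maps the DNA that a protein is bound to or lies close to, was made in AsPC1, a long-established human line of pancreatic ductal adenocarcinoma. An antibody to NUSAP1 gave 1 library from formaldehyde-fixed, sonicated chromatin, and input chromatin taken with no antibody gave the second. The labels give no treatment and no genetic change for either library. All values come from the peaks called in the antibody library on build hg38; no values of the input library were used. Chromosome 4 held 136 of the summits, chromosome 9 held 137, chromosome 13 held 81 and chromosome 14 held 75, in 428 regions. The other 18 autosomes held 8482. With 1 library per group there were no replicates, so no difference between chromosomes was tested. Intervals given below are 95% intervals that cover counting error only, and the peak caller's q, its adjusted p, was the only test of a single summit. The total number of reads was not part of the list.

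NUSAP1 is a nucleolar and spindle-associated protein that binds microtubules, bundles them and helps mitotic spindles to form around chromosomes. It is abundant in dividing cells and in many tumours. It has no well-described DNA sequence of its own to bind, so its peaks can mark chromatin held through partner proteins or through RNA as well as direct contact. A promoter is the DNA just before the start of a gene, where the transcription machinery assembles; CpG-rich promoters serve mostly widely used genes.

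The sequences below are the 250 bases before the start of 8 genes that carried a summit within 1 kb of that start, 1 on chromosome 4, 3 on chromosome 9, and 2 each on chromosomes 13 and 14. They are examples from the 24 genes whose promoters lay under peaks, and not a representative set. SLC7A7, the exception in GC content described below, is not printed. The sequences come from RefSeq on GRCh38.p14, run 5′ to 3′ on the strand of the gene, and the capitals mark the bases inside the peak.
MAML3 (chr4:140154185-140154434, minus strand): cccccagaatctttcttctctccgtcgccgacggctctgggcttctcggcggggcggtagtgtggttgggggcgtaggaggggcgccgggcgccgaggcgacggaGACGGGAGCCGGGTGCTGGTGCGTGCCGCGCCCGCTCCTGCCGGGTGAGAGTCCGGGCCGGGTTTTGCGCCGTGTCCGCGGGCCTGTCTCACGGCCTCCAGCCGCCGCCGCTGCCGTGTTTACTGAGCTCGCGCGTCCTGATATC
SNAPC3 (chr9:15422626-15422875, plus strand): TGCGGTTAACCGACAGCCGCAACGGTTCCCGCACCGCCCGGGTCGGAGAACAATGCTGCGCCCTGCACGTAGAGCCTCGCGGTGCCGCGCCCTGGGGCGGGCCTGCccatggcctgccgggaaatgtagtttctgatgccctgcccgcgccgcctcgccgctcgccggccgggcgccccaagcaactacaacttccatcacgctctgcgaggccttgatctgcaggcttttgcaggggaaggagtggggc
MRPL41 (chr9:137551629-137551878, plus strand): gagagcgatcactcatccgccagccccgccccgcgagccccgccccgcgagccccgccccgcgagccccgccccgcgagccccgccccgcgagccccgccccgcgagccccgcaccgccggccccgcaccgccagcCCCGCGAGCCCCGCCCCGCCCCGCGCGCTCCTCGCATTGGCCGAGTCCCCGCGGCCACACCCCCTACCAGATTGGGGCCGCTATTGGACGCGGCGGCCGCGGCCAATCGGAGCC
RUSC2 (chr9:35489861-35490110, plus strand): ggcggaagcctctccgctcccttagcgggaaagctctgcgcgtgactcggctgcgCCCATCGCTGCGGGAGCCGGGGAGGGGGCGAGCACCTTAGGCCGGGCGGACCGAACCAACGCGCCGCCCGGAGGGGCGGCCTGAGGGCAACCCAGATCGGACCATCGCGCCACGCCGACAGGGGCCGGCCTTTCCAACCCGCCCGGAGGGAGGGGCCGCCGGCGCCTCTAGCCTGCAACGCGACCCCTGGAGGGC
VWA8 (chr13:41961110-41961359, minus strand): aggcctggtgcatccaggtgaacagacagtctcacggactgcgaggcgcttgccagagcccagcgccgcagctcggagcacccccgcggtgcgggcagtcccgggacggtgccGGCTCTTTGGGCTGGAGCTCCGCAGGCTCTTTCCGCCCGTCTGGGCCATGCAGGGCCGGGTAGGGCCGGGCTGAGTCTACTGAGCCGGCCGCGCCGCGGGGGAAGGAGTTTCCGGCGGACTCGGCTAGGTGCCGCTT
UBAC2 (chr13:99200604-99200853, plus strand): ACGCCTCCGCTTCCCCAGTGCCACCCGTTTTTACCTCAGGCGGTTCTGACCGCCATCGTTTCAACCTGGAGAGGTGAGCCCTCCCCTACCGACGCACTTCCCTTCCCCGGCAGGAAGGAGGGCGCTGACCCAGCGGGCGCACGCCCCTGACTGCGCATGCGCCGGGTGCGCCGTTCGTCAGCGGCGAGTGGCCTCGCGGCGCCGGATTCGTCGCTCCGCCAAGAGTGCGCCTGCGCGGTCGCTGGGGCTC
PCNX1 (chr14:70907209-70907458, plus strand): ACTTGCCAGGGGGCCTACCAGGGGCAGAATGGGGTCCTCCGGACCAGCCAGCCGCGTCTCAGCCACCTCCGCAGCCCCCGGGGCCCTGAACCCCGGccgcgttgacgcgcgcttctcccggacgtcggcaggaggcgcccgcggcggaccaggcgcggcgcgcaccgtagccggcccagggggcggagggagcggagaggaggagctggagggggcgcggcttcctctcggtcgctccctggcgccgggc
PLEK2 (chr14:67412166-67412415, minus strand): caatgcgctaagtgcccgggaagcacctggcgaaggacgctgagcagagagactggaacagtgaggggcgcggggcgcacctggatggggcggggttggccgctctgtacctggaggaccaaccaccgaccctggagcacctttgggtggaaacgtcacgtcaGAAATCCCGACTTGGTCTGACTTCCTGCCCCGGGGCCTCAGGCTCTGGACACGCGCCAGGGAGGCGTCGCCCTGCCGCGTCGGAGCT

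MAML3 encodes a mastermind-like coactivator of Notch signalling, SNAPC3 a subunit of the complex that starts small nuclear RNA genes, and MRPL41 a protein of the mitochondrial ribosome. UBAC2 encodes a membrane protein of the endoplasmic reticulum and PLEK2 a pleckstrin family protein. The peak covered all 250 bases before UBAC2, and its summit was 5 bp before the start. At MRPL41 the summit was 2 bp before the start, at VWA8 78 bp, at RUSC2 91 bp and at PLEK2 72 bp. At SNAPC3 and PCNX1 the peak lay further out, with summits 258 bp and 273 bp before the start. At MAML3 the summit was 108 bp inside the gene.

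Per Mb of sequence that holds genes or peaks, there were 0.728 summits on chromosome 4 (0.611 to 0.862), 0.842 on chromosome 13 (0.669 to 1.05), 0.847 on chromosome 14 (0.666 to 1.06) and 1.13 on chromosome 9 (0.951 to 1.34). Together they held 0.871 per Mb, against 3.82 on the other 18 autosomes and 6.18 on chromosome 11, the densest. Just inside the choice was chromosome 9. Chromosome 22, with 39 summits and 1.04 per Mb, lay below chromosome 9 by this measure and was not chosen, and chromosome 8 came next with 1.81. The 4 chromosomes also held fewer protein-coding genes, 5.03 per Mb against 7.43, but chromosome 14 had 6.81 and chromosome 9 had 6.41, while chromosome 13 had 3.49.

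Summits were spread thinly over chromosomes 4, 13 and 14 with no dense stretch, and more unevenly over chromosome 9. In windows of 5 Mb, each of the 4 chromosomes had a median of 4 summits. The highest window held 8 on chromosome 4, 8 on chromosome 13 and 7 on chromosome 14. Chromosome 9 reached 28 in a single window, from 30 to 35 Mb. The windows on both sides of it held 15 and 11, and these 3 were the only ones of 99 with more than 10. On the other autosomes the median window held 19, and 98 of 445 windows held 28 or more, so the highest window of chromosome 9 was high for its own chromosome and not for the list.

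The stretch from 25 to 40 Mb of chromosome 9, whose bounds were chosen after its counts were seen, held 54 summits, or 3.60 per Mb (2.70 to 4.70). That was near the 3.82 of the other autosomes. The first 25 Mb held 5 summits, or 0.200 per Mb (0.0650 to 0.467), and the sequence beyond 40 Mb held 78, or 0.963 per Mb (0.761 to 1.20). Without the stretch chromosome 9 had 0.783 summits per Mb, close to the other 3 chromosomes. Protein-coding genes were also sparser in the first 25 Mb, with 3.72 per Mb, than in the stretch, with 7.67, and the sequence beyond 40 Mb had 7.002. The part of gene density in these counts was not tested. The first summit of the stretch was at 27948002 and the last at 39591267.

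The stretch opened inside LINGO2 (gene ID 158038, chr9:27937617-29213601), a very long gene for a leucine-rich repeat and immunoglobulin domain protein of the neuronal membrane. LINGO2 held 13 summits, more than any other gene on the 4 chromosomes, at 10.2 per Mb of gene. Their fold enrichments ran from 2.48 to 4.10 on 4 to 6 fragments each, and the smallest q was 0.418. No summit of LINGO2 passed a q of 0.05 on its own. They lay in a group of 6, from 27948002 to 28333009, and a group of 7, from 29018857 to 29200963. The 6.50 Mb before the first of them, from 21449428, held no summit and 19 protein-coding genes, among them CDKN2A, the p16 tumour suppressor gene often lost in pancreatic cancer, whose nearest summit was 518 kb away.

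**Figure D1:**
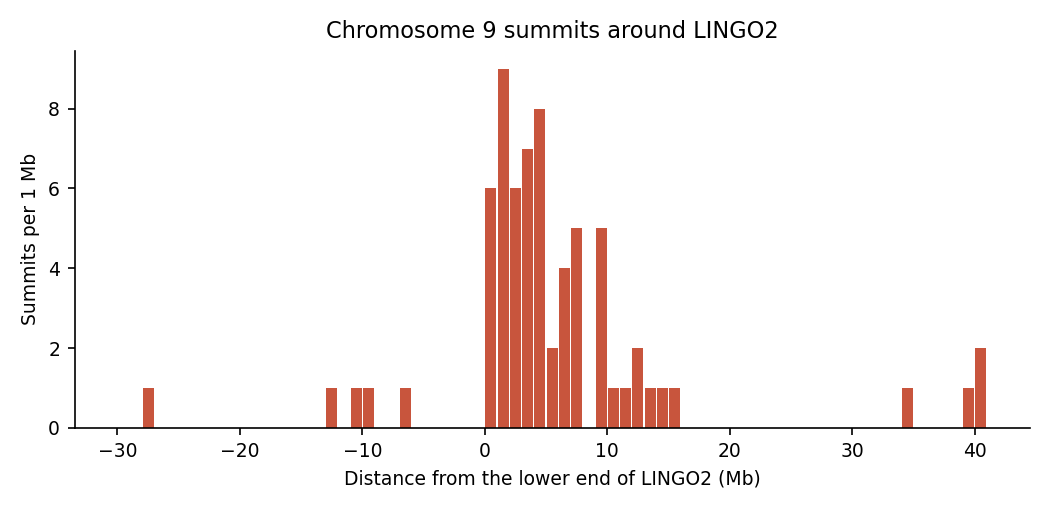
Bars are NUSAP1 summits per 1 Mb along chromosome 9, and the x axis is the distance in Mb from the lower end of LINGO2. Summits are rare before LINGO2, frequent from it onwards for about 10 Mb, and fewer beyond. The part beyond includes 17.4 Mb, from 43474646 to 60832661, that hold neither genes nor peaks and are left out of the densities per Mb.

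Empty stretches were long on each of the 4 chromosomes. On chromosome 9, 15.4 Mb with 51 protein-coding genes separated the summits at 10300 and 15422618, and the 19.4 Mb from 43474515 to 62838609, across the centromere, held 5 such genes. The last 16.5 Mb of chromosome 4, beyond 173647340, held no summit and 54 protein-coding genes. FAT1, which encodes a giant protocadherin, lay there, 12940 kb from its nearest summit. On chromosome 14 the longest gap ran from 25216433 to 34214058, with 17 genes, and on chromosome 13 it was 5.90 Mb with 4 genes.

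Runs of 3 or more summits with gaps of at most 100 kb held 30 of the 429 summits (6.99%), in 7 clusters, against 36.4% of the summits of the other autosomes in 732 clusters. A cluster of fixed gap becomes rarer as summits become sparser. Chromosome 9 had 5 of the clusters with 23 summits, chromosome 13 had 2 with 7, and chromosomes 4 and 14 had none. Without chromosome 9 the share was 2.40%, without chromosome 4 it was 10.2%, and without the dense stretch alone it was 2.67%. The 7 summits of the second LINGO2 group formed the largest cluster. The next had 6 summits from 32668462 to 32895031, around and beyond TMEM215, which lay 22020 bp from the nearest of them. A cluster of 4 lay in a region poor in genes, 1306 kb from the nearest protein-coding gene, and 3 summits lay in and near PHF24. On chromosome 13, a cluster of 4 began in LINC00426 at 30358332 and ended at 30477616 in HMGB1, which encodes an abundant chromatin protein that bends DNA. Its other 2 summits were outside genes, 43384 and 27307 bp from UBE2L5, the nearest protein-coding gene. A cluster of 3 ran from VWA8 to DGKH, a diacylglycerol kinase gene.

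Gaps measured against the mean gap of their own chromosome take the number of summits out of the comparison. Below 0.1 of the mean lay 8.89% of gaps on chromosome 4, 10.0% on chromosome 13 and 10.8% on chromosome 14, but 25.7% on chromosome 9. Over the other autosomes it was 13.6%, with single chromosomes between 8.62% and 27.6%. The standard deviation of the gaps over their mean was 1.01 on chromosomes 4 and 13, 1.13 on chromosome 14 and 2.23 on chromosome 9, where the other autosomes ran from 1.04 to 3.83. By this second measure chromosomes 4 and 13 lay just under the other autosomes, but by the share of short gaps they were within their range, as chromosomes 9 and 14 were by both. Gaps run from summit to summit, so the empty end of chromosome 4 is not among them.

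Peaks on the 4 chromosomes rested on few fragments, as elsewhere. The number of fragments at each summit was worked out from the fold enrichment and p of the caller, together with the background, the number the caller expected there. The median was 5 fragments on each of the 4 chromosomes and on the other autosomes. Summits with 4 fragments, the fewest in the list, made up 34.3% (29.9 to 38.9), against 29.1% (28.1 to 30.0) on the other autosomes, and 38.2% (30.5 to 46.6) on chromosome 4. Summits with 5 made up 34.7% against 37.2%, and those with 6 made up 20.3% against 21.9%. Summits with 7 or more numbered 46 (10.7%), where 12.2% of all summits in the list had that many, so their share was near the background. Chromosome 14 had the largest share of them, 14.7%, and chromosome 4 the smallest, 8.82%.

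The background differed more than the number of fragments did. Its median was 0.712 expected fragments against 0.921 on the other autosomes. It stood at its lowest value, 0.708 to 0.712, at 64.3% of the summits (59.7 to 68.7), against 17.4% elsewhere (16.6 to 18.2), and the highest share on a single other autosome was 16 of 39 summits, on chromosome 22. By chromosome the share was 77.9% on chromosome 4, 76.5% on chromosome 13, 64.0% on chromosome 14 and 43.8% on chromosome 9 (35.8 to 52.2), which was near chromosome 22. The median background of chromosome 9, 0.836, was above the 0.765 of chromosome 22. Within chromosome 9 it was 16.7% in the dense stretch, 9 of 54 summits, and 61.4% outside it. The share in the dense stretch was near the 17.4% of the other autosomes. The stretch was chosen for its counts, so its density is no separate result. Among summits of exactly 5 fragments the median background was 0.712 (149 summits) against 0.921 elsewhere (3151 summits), and within chromosome 9 it was 0.999 in the stretch (26 summits) and 0.712 beyond it (32 summits).

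A low background also went with sparse windows on the other autosomes, in a comparison chosen after seeing the data. In their 118 windows of 5 Mb with 1 to 10 summits, 53.1% of 589 summits (49.1 to 57.1) were at the lowest background, and the median was 0.712. In the 90 such windows of the 4 chromosomes it was 72.2% of 367 (67.4 to 76.5), with the same median. In windows of more than 10 summits the shares were 14.6% elsewhere (13.8 to 15.4) and 16.7% in the 3 of chromosome 9 (9.02 to 28.7). Sparse windows with a median background of 0.708 to 0.712 lay, for instance, on chromosome 7 from 65 to 125 Mb. The low background was thus not particular to the 4 chromosomes, and the part of window density in their difference was not tested.

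**Figure D2:**
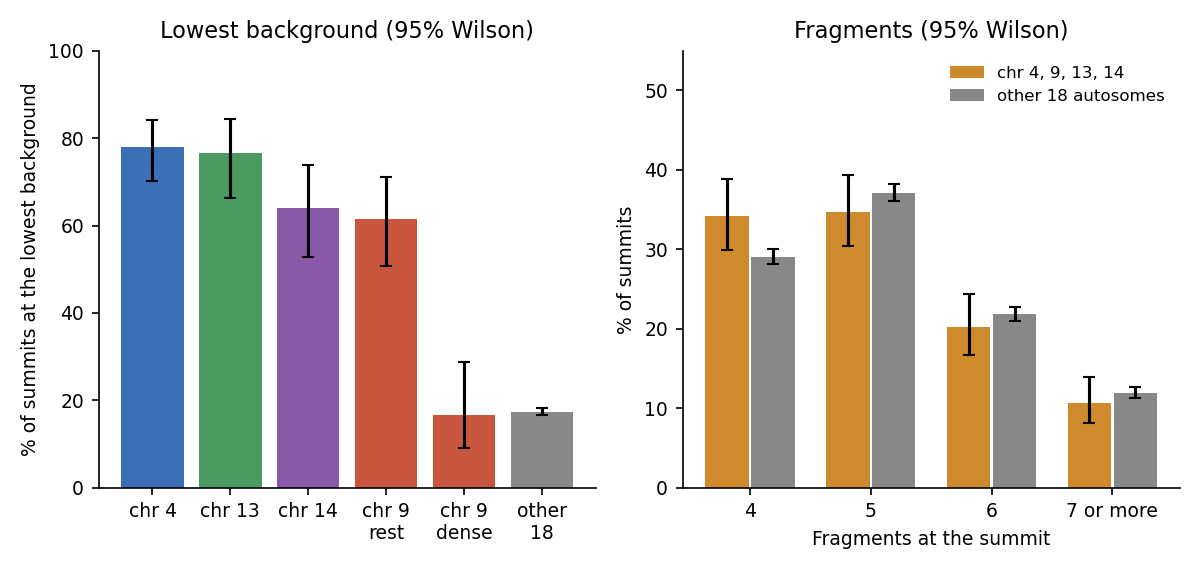
The left panel shows, with 95% Wilson intervals, the percent of summits at the lowest background for each chromosome, the dense stretch and the rest of chromosome 9, and the other autosomes; the right panel shows the percent of summits with 4, 5, 6 and 7 or more fragments for the 4 chromosomes and the other autosomes. The lowest background is far more frequent on the 4 chromosomes outside the stretch, while the fragments differ little.

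Fold enrichment followed from both. The median was 3.27 on the 4 chromosomes against 3.01 elsewhere, with 3.51 on chromosomes 4 and 14, 3.24 on chromosome 13, 3.01 on chromosome 9 and 2.95 in its dense stretch. Since most summits shared the lowest background, their folds fell on steps: 4 fragments gave 2.93, 5 gave 3.51, 6 gave 4.10 and 7 gave 4.68. Of 147 summits with 4 fragments, 116 were on the first step, and 89 of 149 with 5 fragments on the second. The q of a summit went with the step, at 1, 0.779, 0.418 and 0.0857. The median fold thus describes small whole numbers of fragments, and folds of members on the same step cannot be ranked.

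**Figure D3:**
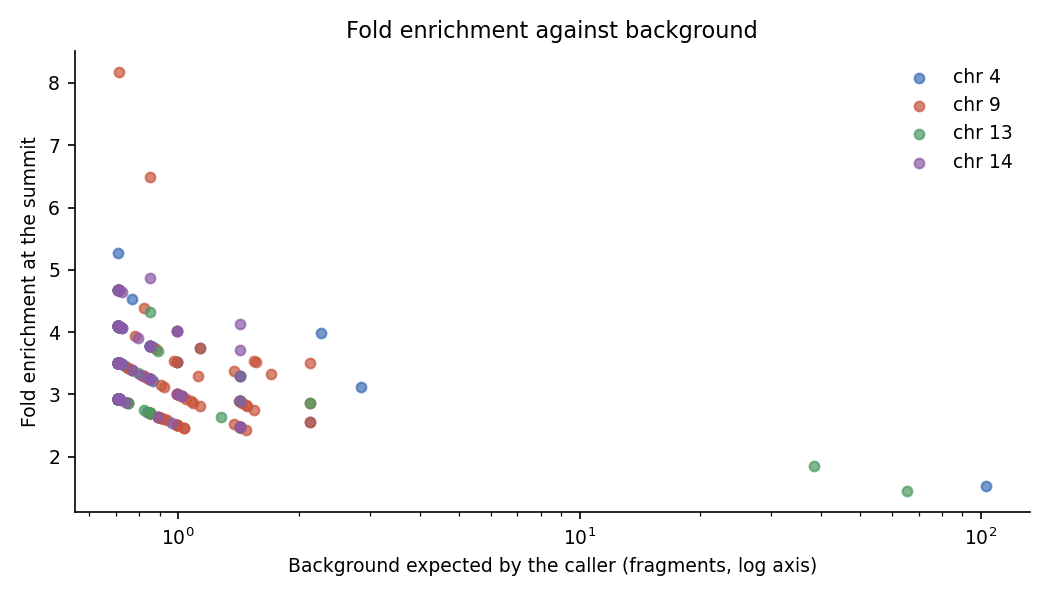
Each point is 1 of the 429 summits, coloured by chromosome, with the caller's expected background on a log x axis and the fold enrichment on the y axis. Most points stand in a column at the lowest background, on steps of 2.93, 3.51, 4.10 and 4.68, and 3 summits of chromosomes 4 and 13 lie far to the right with folds under 2.

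Only 5 of the 429 summits had a q under 0.05 (1.17%, 0.499 to 2.70), where 1.48% of the whole list passed. The strongest was at 10300 of chromosome 9, in a peak at chr9:10138-10468. It had 13 fragments over an expected 0.712, and its fold enrichment was 8.18 (q 2.1e-08). It lay at the very start of the chromosome, 1.69 kb from the lower end of the transcribed pseudogene DDX11L5 and 4.21 kb from the lower end of WASHC1, the gene of a WASH complex subunit, in sequence of a kind that has close copies at other chromosome ends. The second, at chr9:110825160-110825484, had 11 fragments with 6.49-fold enrichment (q 3.74e-05) and lay 18.8 kb beyond MUSK, the gene of the receptor kinase that organises the neuromuscular junction.

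HELQ (gene ID 113510), which encodes a DNA helicase of repair, held the third inside its body at chr4:83451675-83451920, with 8 fragments and 5.27-fold enrichment (q 0.0105). IRF2BPL (gene ID 64207), a short gene for a nuclear zinc finger protein, held the fourth at chr14:77027135-77027425, with 8 fragments over 0.850, a fold of 4.87 and a q of 0.0368, 1405 bp from the nearest gene start. A second summit in IRF2BPL, at 77026152, had a fold of 3.32 and a q of 0.779. The fifth was of another kind. At 49149461 of chromosome 4, near the centromere and 87.4 kb from CWH43, 159 fragments stood over an expected 103, so that its fold was only 1.54 (q 0.0183). None of the 5 was on chromosome 13, where 0 of 81 summits passed, which allows a share of up to 3.70%. The smallest q there, 0.05, was at 18211851 in FAM230C, with 72 fragments over an expected 38.4 and a fold of 1.85.

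Below these, 15 summits shared a q of 0.0857. They included MARCHF1, a ubiquitin ligase gene on chromosome 4, SNAPC3 on chromosome 9, the non-coding LINC00345 on chromosome 13, and UNC79, a gene of a sodium leak channel complex, on chromosome 14. A q of 0.5 or more was given to 324 of the 429 summits (75.5%), against 83.8% elsewhere. At 10 summits (2.33%, 1.27 to 4.24) the background was at least 3 times the lowest. On the other autosomes the share was 1.78%, so that of the members was near it. Besides the summit near CWH43, the 10 included 2 summits of 72 and 95 fragments in a single region in FAM230C on chromosome 13, with folds of 1.85 and 1.44. A summit 0.760 kb from USP17L24 was also among them. FAM230C has 9 relatives of the same name stem on chromosome 22, and USP17L24 is 1 of 23 USP17L genes on chromosome 4, so reads there may belong to another copy.

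Summits lay inside genes and outside them about as often as the sequence does. Away from gene ends but inside genes, counting protein-coding genes and those of long non-coding RNA, were 215 summits (50.1%) against 51.2% on the other autosomes, while such sequence made up 51.3% of the 4 chromosomes. Outside genes were 180 (42.0%), against 41.9%. Gene ends here are the 2 outer limits of a gene, so a start that lies further inside is not counted. Within 1 kb of such an end were 34 summits (7.93%, 5.73 to 10.9), where 6.92% of all summits on autosomes were. That is near the background. Such sequence made up 4.03% of the 4 chromosomes and 4.95% of the others, so that pooled summits were 1.97 and 1.39 times as frequent there as the sequence. On single other autosomes this ratio ran from 0.675 to 2.50, highest on chromosome 22. The 4 chromosomes, from 1.69 to 2.28, lay within that range. By chromosome the share was 5.88% on chromosome 4, 9.49% on chromosome 9, 6.17% on chromosome 13 and 10.7% on chromosome 14.

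In the dense stretch of chromosome 9, a single one of the 54 summits (1.85%, 0.328 to 9.77), at RUSC2, was within 1 kb of a gene end, against 12 of 83 (14.5%, 8.47 to 23.6) in the rest of the chromosome. The intervals overlap, and the difference was not tested. More than 100 kb from any gene start lay 27 of the 54, against 27.5% of all 429. The sequence within 1 kb of a gene end was about as frequent in the stretch, 4.83%, as in the rest of the chromosome, 4.71%.

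Summits were more frequent close to gene starts than the sequence there is, and by a larger pooled ratio than on the other autosomes. Chromosome 8 was not used in this comparison, which leaves 17 other autosomes with 8224 summits. Within 250 bp of a gene start lay 17 of the 429 (3.96%, 2.49 to 6.25), 8.23 times the share of sequence. Elsewhere it was 167 summits (2.03%, 1.75 to 2.36), or 3.35 times. From 250 bp to 1 kb the ratios were 2.04 and 1.47, from 1 to 5 kb 1.48 and 0.864, and beyond 100 kb 0.912 and 1.06. The chromosomes were not alike in this. Within 1 kb of a start the ratio was 2.51 on chromosome 4, 3.24 on chromosome 14, 4.11 on chromosome 13 and 4.48 on chromosome 9, where the 17 other autosomes ran from 1.11 to 3.19. These rest on 5 summits each on chromosomes 4, 13 and 14 and 13 on chromosome 9. Chromosome 4 was within the range, chromosome 14 just above its top, and chromosomes 9 and 13 further above it. The background moved with this result. Of the 28 summits within 1 kb of a start, 17 were above the lowest background, and the share at a start was 11.1% of the 153 summits above it and 3.99% of the 276 at it. On the other autosomes these shares were 4.89% and 1.76%. The part of the background in the difference was not tested.

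**Figure D4:**
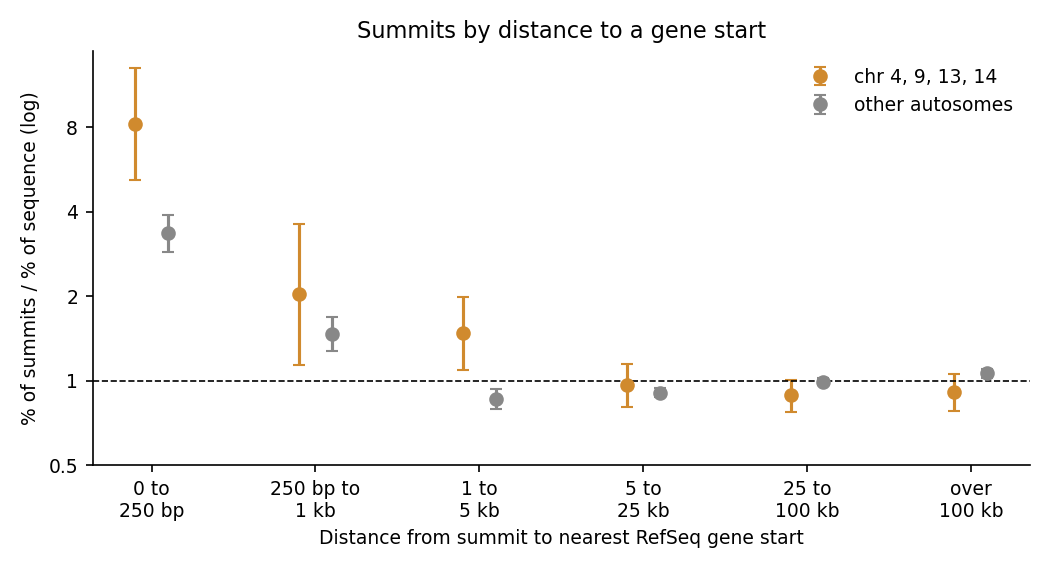
Points show the percent of summits over the percent of sequence, on a log y axis with 95% intervals, for classes of distance from the summit to the nearest RefSeq gene start, for the 4 chromosomes and the 17 other autosomes used. The class within 250 bp stands at 8.23 for the 4 chromosomes and 3.35 for the others, and the ratios come close to 1 beyond 5 kb.

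The promoters under the peaks were rich in G and C. Peaks overlapped 28 promoter windows of 300 bases, from 250 before to 50 after the start, belonging to 24 genes under 18 summits; windows of neighbouring starts and of opposite genes share sequence and are not independent. Their median GC content was 71%, against 57% for all 5311 windows of the 4 chromosomes, and their median ratio of observed to expected CpG was 0.925 against 0.536. On the other autosomes the windows under peaks had a median GC content of 66.7%. SLC7A7, an amino acid transporter gene on chromosome 14, was the exception, with 54% and a CpG ratio of 0.0469.

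Letters of known promoter motifs were counted on both strands. The GC box GGGCGG was in 22 of the 28 windows (78.6%), against 42.3% of all windows of these chromosomes, and 66.7% of those under peaks elsewhere. UBAC2, whose sequence is printed above, had none. CCAAT was in 4 (14.3%), MRPL41 among them, against 33.0% of all windows and 27.0% under peaks elsewhere. The overlapping windows of ARPC5L and RPL35 held the same CCAAT. The E-box CACGTG was in 2 (7.14%), against 7.17% and 9.01%. Both were windows of the ZBTB1 and ZBTB25 pair and held the same site, so these shares count windows and not separate sites. The letters CCGGAAG of ETS factors were in none of the 28, against 8.91% of all windows and 20.3% of those under peaks elsewhere. The TATA box letters TATAAA were in none, against 12.7% and 4.50%, and the letters AAGATGGC of YY1 were in none, against 2.37% and 2.70%. A count of 0 in 28 windows would allow a share of up to 10.7% if the windows were independent. They lie under 18 summits and some share sequence, so the limit is higher than that. The GC box goes with GC content, and the windows were not matched for it.

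At the level of genes, 31 of the 2478 protein-coding genes of the 4 chromosomes (1.25%) had a summit within 1 kb of an end, against 2.45% on the other autosomes. Starts inside the outer limits are not counted, such as those of FLRT2 and KLHL8, with summits 36 and 77 bp away. In 21 of the 31 genes the summit was at the start and in 10 at the other end or away from a known start. The 31 genes shared 26 summits. Their folds ran from 2.48 to 4.68 and the smallest q was 0.0857, so none passed a q of 0.05. Counting gene bodies as well, 165 genes had a summit there or within 1 kb (6.66%), where 15.2% of protein-coding genes on the other autosomes did. Summits per Mb of sequence were 4.39 times as frequent on the other autosomes, so a lower share is what the choice of chromosomes gives.

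Chromosome 9 had 13 of these genes. SNAPC3 had 7 fragments and a fold of 4.68, the highest of the 31. MRPL41 had 7 fragments and a fold of 4.39 (q 0.162). ZMYND19 followed with 4.09 (q 0.418). A summit inside the dynamin gene DNM1, 326 bp from its upper end and 911 bp from the Golgi matrix gene GOLGA2, had 3.51, and 1 at NELFB, a subunit of the factor that pauses RNA polymerase II, and CIMIP2A had 3.43 (both q 0.779). The orphan nuclear receptor gene NR4A3 and the corepressor gene TLE1 had 3.24 each. ARPC5L and the ribosomal protein gene RPL35, which start side by side, shared a summit of 2.89, and RUSC2 and PIP5K1B had 2.83 and 2.48.

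Chromosome 13 had 4 such genes: UBAC2 with 4.10 (q 0.418), VWA8 with 3.51 (q 0.779), and NDFIP2, an adaptor of NEDD4 ubiquitin ligases, and LRCH1 with 2.93 and 2.92 (both q 1). Genes of chromosome 14 included ZBTB1, a transcription factor gene of lymphoid development, with 3.90 (q 0.418), and PABPN1, the nuclear poly(A) binding protein gene, with 3.71 (q 0.418). The summit of PABPN1 also counts for the read-through gene BCL2L2-PABPN1, and it lay near the far end of both. The homeobox gene SIX4 had 2.93 near its far end, PCNX1 had 2.88 and PLEK2 had 2.48. On chromosome 4 MAML3 had 3.51 (q 0.779) and USP17L24 had 3.12, while ATP8A1, a phospholipid flippase gene, HSD17B13, a gene of liver lipid droplets, and PLK4, the kinase gene of centriole duplication, each had 2.93 with a q of 1. STX18, a gene of vesicle fusion at the endoplasmic reticulum, and LOC124900165 shared a summit of 2.55.

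Long genes held several summits, few of them strong. Besides LINGO2, 3 summits lay in GALNTL6, a glycosyltransferase family gene on chromosome 4, with folds from 2.92 to 3.46, and 3 in NALF1, a gene of the sodium leak channel complex on chromosome 13, with folds from 2.89 to 3.51. MARCHF1, DENND1A, a gene of endosome traffic, MTUS2, a microtubule-associated gene, GPHN, which encodes the receptor scaffold gephyrin, and RAD51B, a gene of recombination repair, held 2 each. Of 49 protein-coding genes over 500 kb, 23 (46.9%) held a summit, or 1.03 per Mb of gene, against 197 of 254 (77.6%) and 4.04 per Mb elsewhere. Length did not assure a summit. The longest, the receptor phosphatase gene PTPRD, spans 2299 kb of chromosome 9 and lay 4810 kb from its nearest summit. NRXN3, a neurexin gene of synapses, was 64.4 kb from one, and TENM3, a teneurin gene in the empty end of chromosome 4, was 7800 kb from one.

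Gene lists were read against the 6.66% of all protein-coding genes of these chromosomes that held a summit or had one within 1 kb. Among 41 cancer genes, 1 had one, RAD51B, with 2 summits of 2.92 and 2.93 (q 1), and IRS2, AKT1 and PAX5, the nearest of the rest, were 19.6, 20.3 and 22.5 kb away. Among 34 genes of mitosis and the spindle, where NUSAP1 itself works, 2 had one: PLK4, and TTLL5, a tubulin polyglutamylase gene, with a fold of 4.10 (q 0.418). The formin gene DIAPH3, TACC3 and CKAP2 had summits 3.13, 6.09 and 25.9 kb away. These counts of 2 of 34 (5.88%) are near the share of all genes.

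None of 14 genes of sugar and lactate metabolism had a summit, and PPARGC1A, PGM5 and SUCLA2 were 8.49, 66.3 and 70.0 kb from one. None of 11 genes of pancreas and gut identity had one either, with NKX6-1, PDX1 and CDX2 47.8, 93.0 and 134 kb away. A count of 0 allows shares of up to 21.4% of the 14 and 27.3% of the 11, so a difference from all genes was not detectable. Among 35 developmental transcription factor genes SIX4 was the only one, and PAX9, at 5.26 kb, BCL11B, at 18013 bp, and PAX5 were the next nearest. Of 32 genes of adhesion, synapses and axon guidance, 8 held a summit. Besides LINGO2 they included ASTN2, the protocadherin gene PCDH9, the glypican genes GPC5 and GPC6, LRFN5 and FLRT2. Those named besides LINGO2 had single summits with folds from 2.93 to 4.09, highest at PCDH9 and GPC6, and no q under 0.418. This list had a median gene length of 331 kb against 33.4 kb for all genes, and the part of length in its count was not tested. PCDH20, PCDH8 and NRXN3 of the same list had their nearest summits 5.46, 35.6 and 64.4 kb away.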

How the data were processed

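The file used was the narrowPeak list of the NUSAP1 library. The submitters' processing notes give MACS2 2.1.0, Bowtie 1.1.2, Trimmomatic 0.33, bcl2fastq 2.17 and build hg38; the caller's settings are not given in the sources used here. Among the columns deposited by the authors are a display score, fold enrichment as a ratio, −log10 p and −log10 q, and, in a column of other kind, the bases from peak start to summit, also deposited. Positions are counted from 1.

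Fragments and background were worked out here from the fold, read as (fragments + 1) over (background + 1), and the Poisson p. A whole number matched −log10 p within 0.001 for all 9043 summits, and a second one did for 153, of which 3 are members. Of 500 summits simulated with the same formula at low backgrounds, 500 were recovered. That checks the arithmetic only, and tests neither the formula nor the summits of high background. That the background came from the input library is inferred. A background within 0.005 of 0.708 is called lowest.

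Genes, starts and promoters came from RefSeq tables on GRCh38.p14. Of the genes listed under autosomes, 676 with coordinates of other sequences were left out, and 2158 of the 2478 protein-coding genes of the 4 chromosomes had a start. Summits per Mb use the span of genes and peaks without stretches over 1 Mb that hold neither. Intervals are Wilson for shares and exact Poisson for densities.

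Genes are named by a rule: those at the 5 highest folds per chromosome and at q under 0.05; up to 10 per chromosome with a summit at an end; the 2 per chromosome with most summits; list genes with a summit and up to 3 without; and those nearest to the largest clusters. A few genes the rule names are not reported here. RPL35, RUSC2, PIP5K1B, PHF24, SLC7A7, FAM230C, CDKN2A, FAT1, PTPRD, TENM3, DDX11L5 and UBE2L5 were added once their values were known. The chromosomes, members and lists were chosen with earlier results of these data known. Alternatives were other windows, gaps and limits on q, fold and background, and each chromosome left out. Analysis used scipy 1.17.1, pandas 2.3.3 and numpy 2.4.6 in Python 3.11.15, and figures matplotlib 3.10.9.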

Additional observations from a re-analysis of the deposited data

How the results depend on the processing

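Of 46 alternatives, 35 stayed within their counting interval, or within 1.5 times for counts, and 11 did not. Stricter limits cut the members. By q, 239 of the 429 ranked above the middle of the whole list, with a median fold of 3.51. Summits of equal q were ranked by chromosome and position, so the 239 may depend on that order. A fold of at least 4 was reached by 83, of which 44.6% lay inside genes. A window of 5 kb put 24.5% at a gene end. With protein-coding genes alone 38.7% lay inside a gene. Clusters depended on the gap, with 3.26% of summits at 50 kb and 18.9% at 250 kb, and on the chromosomes taken in: 10.2% without chromosome 4, 2.40% without chromosome 9, and 2.67% without the dense stretch of chromosome 9, an alternative chosen after seeing the data. Leaving out the high backgrounds left 4 of the 5 summits with q under 0.05. No paired analysis was possible because each group has 1 library and only the precipitated one has values. With 4 to 6 fragments at most summits, depth limits every single position, and summits on the same step cannot be ordered. The caller's settings and the number of reads are unknown, and there is no replicate.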

Other observations

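Of the 429 summits, 13 lay within 1 kb of a gene of another kind, and for 9 of these 13 summits that included a pseudogene. The same count was not made on the other autosomes, so whether 13 is many or few is not known. In the immunoglobulin heavy chain locus IGH on chromosome 14, 2 summits lay 781 bp apart, at 106364635 and 106365416, with folds of 2.97 and 4.02 and q of 0.933 and 0.418. The T cell receptor locus TRA and TRD held 1 summit, at 22439853, with a fold of 2.92 and a q of 1.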
